A study of Mus musculus with 24 samples.

Results

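The brains of mice that lack the phenylalanine tRNA gene tRNA-Phe-1-1 were compared with the brains of mice that lack another copy, tRNA-Phe-3-1. The samples were chosen by the tissue and genotype in their titles, which gave 3 tRNA-Phe-1-1-/- and 3 tRNA-Phe-3-1-/- brains, 6 of the 24 samples of the study and 6 of its 12 brain samples. RNA was sequenced from brain and from liver of 4 genotypes, wild type (WT) and the homozygous lines tRNA-Phe-1-1-/-, of tRNA-Phe-2-1-/- and of tRNA-Phe-3-1-/-, with replicates A, B and C in each group. Per the labels the mice, WT included, were age-matched males on a C57BL/6N background, and the sources differ on whether WT and mutant mice came from the same litters. No treatment is labelled, and the labels give no age. The lines were made with CRISPR/Cas9 in embryos, so that a homozygous animal carries its deletion in every cell. Per the labels, tissue pieces were homogenized, and the brain region of each piece was not given.

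Mice have several nuclear genes for tRNA-Phe, the transfer RNA that carries phenylalanine to the ribosome and reads its codons UUC and UUU. Copies that share the anticodon but differ in the body of the tRNA are called isodecoders, and the first number in a gene name stands for the isodecoder sequence. When proteins fold poorly in the endoplasmic reticulum (ER), the unfolded protein response raises ER chaperones, while misfolding in the cytosol raises heat shock proteins through heat shock factors.

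Both lines were made with the same guide RNA, whose target is held by each nuclear tRNA-Phe gene in RefSeq. It is shown with its protospacer adjacent motif in capitals because it is the sequence that the 2 lines share.
guide: gcgttagactgaagatctaaAGG
An exact match of these bases to the mouse genome (GRCm39, the build used for this match only) was found in 7 places, once in each of the 7 nuclear tRNA-Phe genes. That of tRNA-Phe-1-1 lies at chr5:125483146-125483168 (minus strand) and that of tRNA-Phe-3-1 at chr13:22067082-22067104 (minus strand). Of the 7 nuclear tRNA-Phe genes, 0 were among the rows of the brain table, so the loss of each tRNA gene was not analysed here.

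Between 30365760 and 39993153 reads were recovered per sample from the 6 normalised libraries. The defining markers of neurons (Snap25 and Syp), oligodendrocytes (Mbp), astrocytes (Gfap and Aqp4), endothelium (Cldn5) and microglia (Cx3cr1) were all present in the 6 samples, at 843 to 64700 normalised counts. The liver gene Alb had 851 normalised counts in tRNA-Phe-1-1-/- replicate A and between 3.23 and 36.5 in the other 5 samples, while WT brains had up to 625. Replicate C of tRNA-Phe-3-1-/- stood apart, at -79.4 on the first principal component (26.0% of the variance of the 12 brains), where the other 11 brains lay between -42.0 and 39.8. List medians that change sign or move by more than 1.5 times without this library are given with and without it. Since the tissue is bulk, fewer cells of a type and less RNA per cell cannot be told apart.

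To find how the loss of either gene separates the 2 brain transcriptomes, normalised counts were compared as log2(normalised count + 1) with limma, in a model of the 12 brains that share 1 estimate of the spread. All differences below are tRNA-Phe-1-1-/- minus tRNA-Phe-3-1-/- on this scale, with their standard error (SE), and adjusted p-values are Benjamini-Hochberg values of this limma fit over 19228 genes. In all, 406 genes differed at an adjusted p under 0.05 (2.11% of the genes tested), of which 272 were higher in tRNA-Phe-1-1-/- brains (1.41%) and 134 were lower (0.697%). The median difference was 0.63 for the higher genes and -0.80 for the lower genes, against -0.0026 for all genes, and 121 genes differed more than 2-fold. The 3 samples of one line lay wholly above or below the 3 of the other for all 406 genes, as they did for 23.5% of all genes tested. Of the higher genes 256 coded for proteins, as did 102 of the lower genes. Over the 19228 genes 3755 had an unadjusted p under 0.05, the share to set beside list counts at that threshold. On recovered reads DESeq2 called 1318 genes (766 higher and 552 lower) and edgeR 352. List counts by these tools are to be set beside those totals.

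For most of these genes the WT brains lay nearer to tRNA-Phe-3-1-/- than to tRNA-Phe-1-1-/- brains. The mean WT level was nearer to that of tRNA-Phe-3-1-/- brains for 201 of the 272 higher genes (73.9%) and for 109 of the 134 lower genes (81.3%), against 52.8% of all genes tested. Relative to WT, the higher genes had a median difference of 0.44 in tRNA-Phe-1-1-/- and -0.19 in tRNA-Phe-3-1-/- brains, and the lower genes had -0.58 and 0.19. These values share the WT samples and are given side by side only. In the same fit 85 of the higher and 33 of the lower genes also differed from WT in tRNA-Phe-1-1-/- brains in the same direction. Of all 19228 genes, 202 differed between tRNA-Phe-1-1-/- and WT brains in either direction. Both comparisons hold the same tRNA-Phe-1-1-/- brains, so their overlap is not a result. Between tRNA-Phe-3-1-/- and WT brains limma called 0 genes (2373 at an unadjusted p under 0.05), a comparison for which no other tool was run. The tRNA-Phe-2-1-/- brains were likewise nearer to tRNA-Phe-3-1-/- for 215 of the higher genes (79.0%) and 94 of the lower genes (70.1%), against 53.5% of all genes.

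The number of genes past the threshold depended on single libraries. Without tRNA-Phe-1-1-/- replicate A, B or C it was 147, 48 or 61, and without tRNA-Phe-3-1-/- replicate A or C it was 112 or 98. Leaving out WT replicate A or C gave 270 or 209, and leaving out tRNA-Phe-2-1-/- replicate A or B gave 230 or 266. With only the 6 brains of the 2 lines in the fit, 5 genes passed. The differences are the same in that fit by design, so no direction could change. All 406 genes had an unadjusted p under 0.05 there, as did 3169 of all 19228 genes. The 406 were chosen in a fit that holds the same 6 brains, so this is no separate evidence. A set of 36 genes passed in each of the 12 fits without 1 brain. It included the ER genes Hspa5, Calr, Pdia4, Pdia6, Sdf2l1, Dnajb11 and Xbp1, the heat shock genes Dnajb1, Hsph1, Hspa1a and Hspa1b, and Plin4, Xdh, Fam107a, Mfsd2a, Nfkbia, Per3 and Cirbp. These names were chosen from the set after its values were seen.

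**Figure D1:**
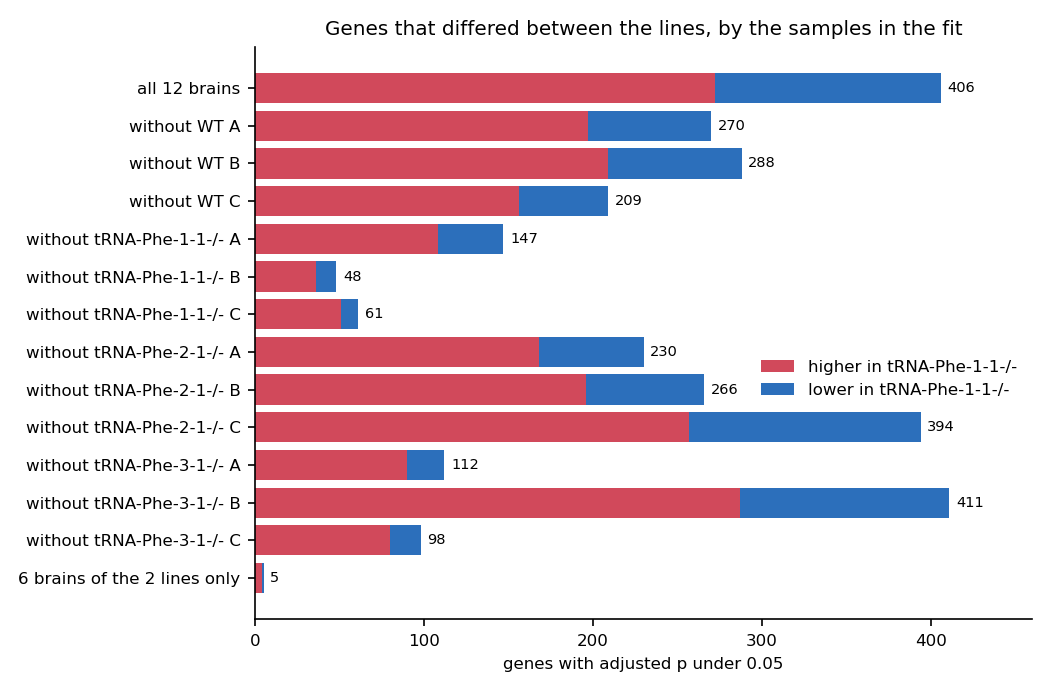
Number of genes with an adjusted p under 0.05 when tRNA-Phe-1-1-/- brains were set against those of tRNA-Phe-3-1-/- (x axis, count of genes) for the fit with all 12 brains, each fit without 1 brain, and the fit with the 6 brains of the 2 lines (y axis). Red bars are genes higher and blue bars genes lower in tRNA-Phe-1-1-/- brains, and the total falls from 406 to 48 without tRNA-Phe-1-1-/- replicate B and to 5 with the 6 brains alone.

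Chaperones and folding enzymes of the ER were higher in tRNA-Phe-1-1-/- than in tRNA-Phe-3-1-/- brains. Of the 22 genes of this list, 12 rose and 0 fell at the threshold, where 1.41% of all genes were higher, and the median difference of the list was 0.44. Hspa5 (ENSMUSG00000026864.13; GRCm38.p6 chromosome 2, 34772090 to 34776529), which encodes BiP, the master chaperone of the ER lumen, had 14754, 15119 and 17260 normalised counts in tRNA-Phe-1-1-/- and 6938, 5975 and 8305 in tRNA-Phe-3-1-/- replicates A, B and C. The difference was 1.16 ± 0.13 (adjusted p = 0.00309), and the lines did not overlap, as in all 406 called genes. The 3 WT brains had 9448, 9147 and 7782, below all tRNA-Phe-1-1-/- samples.

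Sdf2l1 (chromosome 16, 17130138 to 17132383), a partner of BiP, had the largest difference of the list. Its values were 583, 531 and 653 against 229.5, 226 and 216 normalised counts (1.39 ± 0.17, adjusted p = 0.00416). Calr (chromosome 8, 84842088 to 84846931), the calcium-binding lectin chaperone calreticulin, had 12630, 14110 and 14109 against 8452, 8149 and 8382 normalised counts (0.71 ± 0.068, adjusted p = 0.00209). Its 3 values within each line were close together and far from those of the other line. The protein disulfide isomerases Pdia6 (0.73 ± 0.083, adjusted p = 0.00344) and Pdia4 (0.92 ± 0.11, adjusted p = 0.00406) rose as well. The co-chaperones Dnajb11 (0.54) and Dnajc3 (0.54), the secreted factors Manf (0.89) and Creld2 (0.84), and Hsp90b1 (0.52), Pdia3 (0.53) and Hyou1 (0.37) completed the 12. Not all ER folding genes passed. The lectin chaperone Canx, the counterpart of calreticulin, had 14284, 16370 and 16103 against 15069, 13140 and 16527 normalised counts (0.067 ± 0.087, adjusted p = 0.706). Ppib (0.052), P4hb (0.14) and Erp44 (0.051) did not pass either, and Sil1, an exchange factor of BiP, had a negative difference (-0.32 ± 0.15, adjusted p = 0.265). Relative to WT the list had a median of 0.36 in tRNA-Phe-1-1-/- and -0.081 in tRNA-Phe-3-1-/- brains, with shared WT samples. Without tRNA-Phe-1-1-/- replicate B or C 6 members passed, without tRNA-Phe-3-1-/- replicate A or B 7 or 8, and without replicate C 10.

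**Figure D2:**
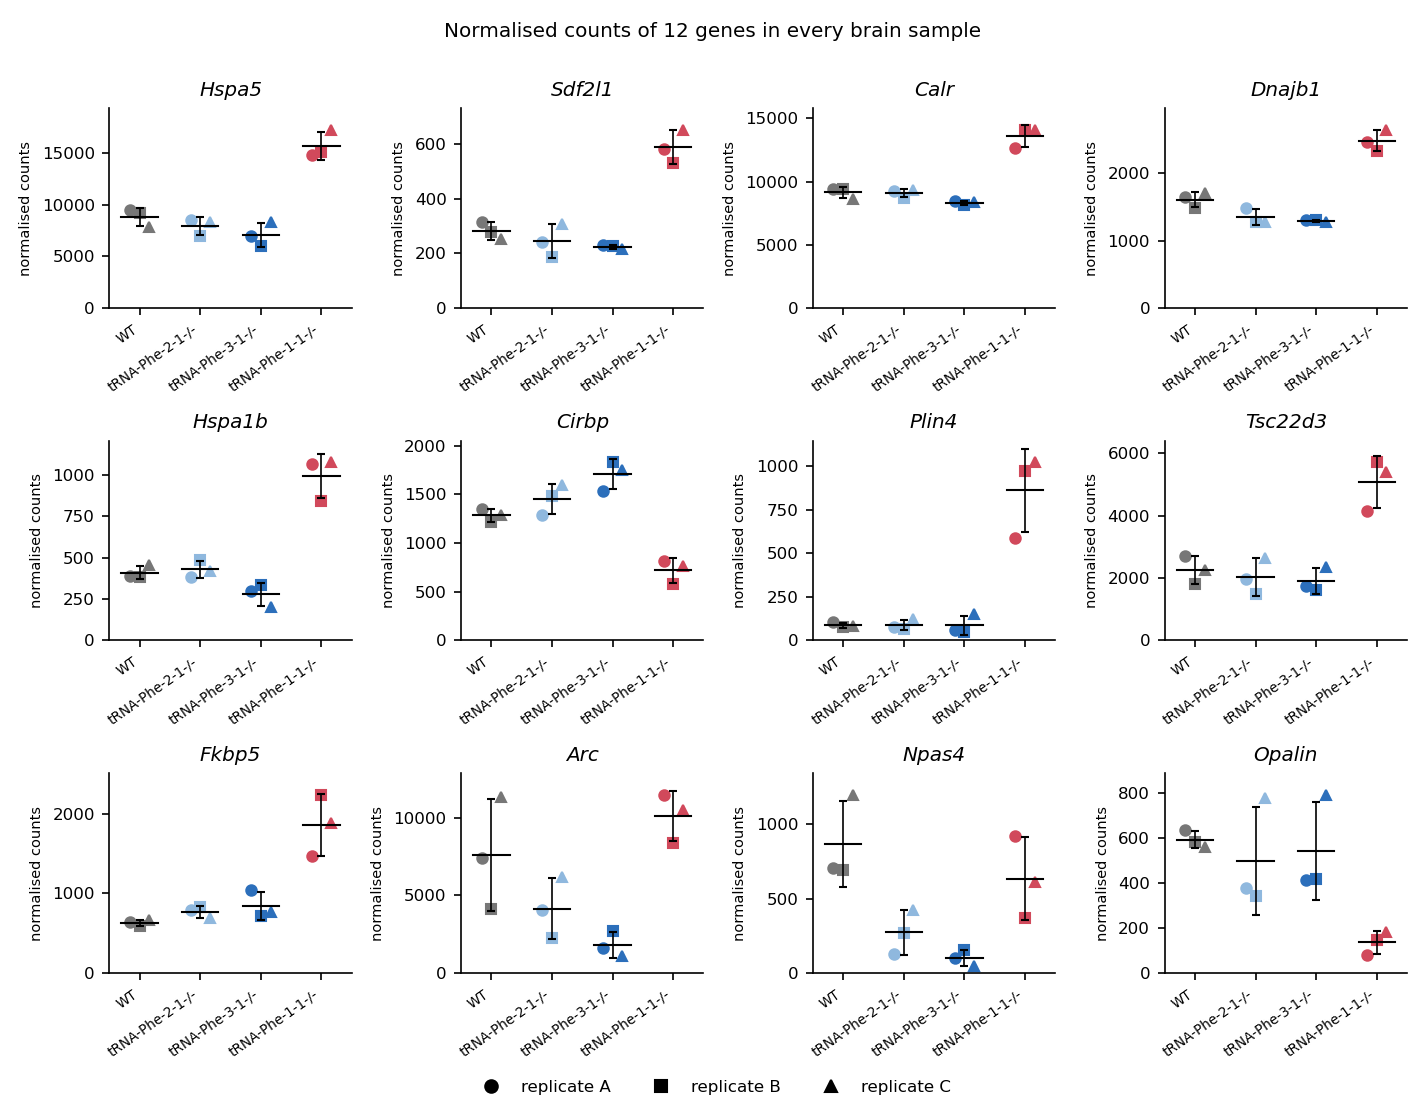
Normalised counts (y axis, linear from 0) of 12 genes in the 12 brains, by genotype (x axis). Points are samples with the replicate as the symbol, and lines with error bars are the mean and SD of 3 samples. The 3 tRNA-Phe-1-1-/- samples (red) lie above all other brains for Hspa5, Sdf2l1, Calr, Dnajb1, Hspa1b, Plin4, Tsc22d3 and Fkbp5 and below them for Cirbp and Opalin, while for Arc and Npas4 the WT brains reach the tRNA-Phe-1-1-/- level.

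The ER stress element (CCAAT and CCACG with 9 bases between them) is a known binding site of Atf6 with the CCAAT-binding factor NF-Y. It was searched on both strands of RefSeq promoters (GRCm38.p6, 250 bases before to 50 bases after the start). It was present for 8 of the 19 list genes with a promoter (42.1%) and for 3.38% of the 207 higher protein-coding genes with one. The share was 0.174% of all tested protein-coding genes with a promoter and 0.119% of all 32851 single promoters. Elements are shown for the members that rose and held one, and for Derl3 from the list of ER degradation factors. They are in the orientation of the motif, with its fixed letters in capitals, as the sequence that the called genes shown share.
Hspa5: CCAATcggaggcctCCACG
Calr: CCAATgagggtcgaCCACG
Pdia6: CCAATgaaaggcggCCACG
Hsp90b1: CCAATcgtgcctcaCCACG
Creld2: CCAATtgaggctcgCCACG
Dnajc3: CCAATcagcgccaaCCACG
Derl3: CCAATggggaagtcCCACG
In the order shown, they begin 65, 162, 98, 107, 126, 105 and 156 bases before the start of the gene. That of Hspa5 lies at chr2:34772025-34772043, that of Calr at chr8:84847075-84847093 and that of Pdia6 at chr12:17266491-17266509. The elements of Calr, Hsp90b1, Creld2 and Derl3 shown here lie on the strand opposite to the gene, and Hsp90b1 held a second one. No element was found for Pdia4, Sdf2l1, Dnajb11, Pdia3, Manf and Hyou1, which rose as well, although some list genes had no promoter to search. Canx, Ero1b and the degradation factor Syvn1 also held an element and had differences of 0.067, 0.24 and 0.086 that did not pass the threshold. The 250 bases before the start of Hspa5 (plus strand, chr2:34771840-34772089) are shown whole, with the fixed letters of the element in capitals, as the promoter of the leading chaperone.
Hspa5 promoter: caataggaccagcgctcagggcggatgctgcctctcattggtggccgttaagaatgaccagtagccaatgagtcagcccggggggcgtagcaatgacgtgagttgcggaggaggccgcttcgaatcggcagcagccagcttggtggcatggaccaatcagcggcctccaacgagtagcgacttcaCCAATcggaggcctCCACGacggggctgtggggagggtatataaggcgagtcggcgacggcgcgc
A match of these letters is a description of the sequence and was not tested as a binding site.

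Genes of ER translocation, degradation and the regulators of the unfolded protein response had smaller differences as a list. Of 32 members, 5 rose and 0 fell, where 1.41% of all genes were higher, and the median was 0.12. Xbp1, whose spliced mRNA encodes a main transcription factor of this response, had 3605, 3740 and 4171 against 2345, 2444 and 2390 normalised counts (0.68 ± 0.083, adjusted p = 0.00458). Herpud1, which acts in ER-associated degradation, had 2441, 2348 and 2528 against 1448, 1491 and 1673 (0.67 ± 0.11, adjusted p = 0.0203). Derl3, another degradation factor, was low in both lines, at 74.5, 80.0 and 82.2 against 30.2, 24.4 and 29.6 normalised counts (1.46 ± 0.30, adjusted p = 0.037). Uggt1, the folding sensor of glycoproteins (0.33), and Sel1l, a scaffold of the degradation complex (0.39), were the others. Without any 1 of the tRNA-Phe-1-1-/- samples or without tRNA-Phe-3-1-/- replicate A 1 member passed. Without WT replicate B, tRNA-Phe-2-1-/- replicate A or tRNA-Phe-3-1-/- replicate C 2 passed, and 3 or 4 in the other fits without 1 brain. Of the 27 genes of the integrated stress response and its factor Atf4, Atf4 itself (3315, 3645 and 3227 against 2626, 2406 and 2586 normalised counts, 0.42 ± 0.085, adjusted p = 0.0369) and Ddit4 rose, and 23 had positive differences with a median of 0.16. Of these genes 1 passed without tRNA-Phe-1-1-/- replicate A or tRNA-Phe-2-1-/- replicate B, 4 without tRNA-Phe-2-1-/- replicate C, and 0 without any 1 of the other 9 brains.

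Cytosolic heat shock genes were the next group that was higher in tRNA-Phe-1-1-/- brains. All 20 members had positive differences, and the median was 0.51. At the threshold 13 rose and 0 fell, where 1.41% of all genes were higher. Hspa1b (chromosome 17, 34956429 to 34959238), an inducible Hsp70, had 1064, 844 and 1078 normalised counts in tRNA-Phe-1-1-/- and 298, 333 and 202 in tRNA-Phe-3-1-/- brains (1.86 ± 0.18, adjusted p = 0.00209). Its near-identical copy Hspa1a had 663, 522 and 679 against 266, 352 and 247 (1.11 ± 0.15, adjusted p = 0.00764), and the division of reads between the copies is uncertain. The lines did not overlap in either copy, as in all 406 called genes. Dnajb1 (chromosome 8, 83608175 to 83612653), the Hsp40 that serves Hsp70, had 2459, 2337 and 2649 against 1303, 1307 and 1281 normalised counts (0.93 ± 0.084, adjusted p = 0.00209), and it passed in each fit without 1 brain and with the 6 brains alone. Hsph1, a nucleotide exchange factor, had 9103, 10301 and 9913 against 5966, 5453 and 5380 (0.80 ± 0.089, adjusted p = 0.00309). The small heat shock protein Hspb1 differed more, at 409, 365 and 496 against 118, 102 and 186 (1.67 ± 0.27, adjusted p = 0.0175).

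Smaller differences were seen in the constitutive members Hspa8 and Hsp90ab1. Hspa8, the constitutive Hsp70 and the most abundant of the list, differed by 0.62 ± 0.098 (adjusted p = 0.0161) and Hsp90ab1, a constitutive Hsp90, by 0.38 ± 0.086 (adjusted p = 0.0482). The Hsp90 co-chaperones Stip1 (0.57), Ahsa1 (0.53) and Chordc1 (0.61) and the Hsp40 members Dnaja1 (0.49), Dnajb4 (0.49) and Dnajb5 (1.06) rose as well. The list also holds the mitochondrial chaperonin genes Hspd1 (0.22 ± 0.083, adjusted p = 0.18) and Hspe1 (0.38 ± 0.14, adjusted p = 0.174), which did not pass. Relative to WT, the median of the list was 0.48 in tRNA-Phe-1-1-/- and -0.12 in tRNA-Phe-3-1-/- brains. Without tRNA-Phe-1-1-/- replicate B or C 4 members passed, without tRNA-Phe-3-1-/- replicate A 8, and in the other 9 fits without 1 brain between 10 and 13. A heat shock element (GAA, TTC and GAA, or TTC, GAA and TTC, each 2 bases apart, on either strand) was found for 4 of 16 list genes with a promoter (Hsph1, Chordc1, Hspd1 and Hspe1). This was 25%, against 0.573% of all tested protein-coding genes with a promoter and 0.603% of all single promoters. Of the called protein-coding genes with a promoter, 2 of 207 higher genes (0.966%) and 0 of 74 lower genes held one. Of the 4 list genes Hsph1 and Chordc1 rose, and Hspa1b, Hspa1a and Dnajb1 were not among the holders. Hspd1 and Hspe1 are divergent neighbours, and their elements are the same sites, counted once for each gene.

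Cirbp (chromosome 10, 80165990 to 80172786), an RNA-binding protein known to be induced by mild cold and reduced by heat, moved the other way. It had 819, 577 and 766 normalised counts in tRNA-Phe-1-1-/- and 1538, 1833 and 1755 in tRNA-Phe-3-1-/- brains (-1.26 ± 0.13, adjusted p = 0.00272), and 1352, 1218 and 1286 in WT brains. The WT samples lay between the lines without overlap with either, and the difference from WT was -0.85 in tRNA-Phe-1-1-/- and 0.41 in tRNA-Phe-3-1-/- brains, which share the WT samples. It passed the threshold in each fit without 1 brain.

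Genes known to respond to glucocorticoids, the adrenal stress hormones, were also higher in tRNA-Phe-1-1-/- brains. Of 30 members 29 had positive differences, and the median was 1.0. At the threshold 18 rose and 0 fell, where 1.41% of all genes were higher. Plin4 (chromosome 17, 56100587 to 56109948), a coat protein of lipid droplets, had 588, 974 and 1025 against 58.2, 50.6 and 150.1 normalised counts (3.44 ± 0.39, adjusted p = 0.00332), the largest rise of all protein-coding genes that met the naming rule. Xdh, which encodes xanthine dehydrogenase, had 616, 786 and 471 against 200.4, 146 and 102 (2.08 ± 0.26, adjusted p = 0.00479). Tsc22d3, the leucine zipper protein GILZ and a textbook target of the glucocorticoid receptor, had 4134, 5712 and 5384 against 1739, 1599 and 2366 (1.42 ± 0.23, adjusted p = 0.0173). The lines did not overlap in these 3 genes, as in all 406 called genes.

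Fkbp5, the co-chaperone that restrains the receptor, had 1462, 2239 and 1880 against 1036, 714 and 767 normalised counts (1.15 ± 0.17, adjusted p = 0.0134). Sgk1, the serum- and glucocorticoid-regulated kinase, had 2476, 4433 and 3858 against 1548, 1682 and 1335 (1.20 ± 0.18, adjusted p = 0.0147). Replicate A was the lowest of the tRNA-Phe-1-1-/- samples in Plin4, Tsc22d3, Fkbp5 and Sgk1. Fam107a, an actin-associated protein (0.95 ± 0.12, adjusted p = 0.00475), Mertk, the receptor kinase for engulfment of debris (1.16 ± 0.16, adjusted p = 0.0109), and Nfkbia, the inhibitor of NF-kB (0.86 ± 0.13, adjusted p = 0.0134), rose too. The metallothioneins Mt1 (0.56) and Mt2 (0.84), which are similar genes, and the transcription factor Klf9 (0.77) also passed. The mTOR inhibitor Ddit4 (0.83), which the integrated stress response list also holds, passed too. Of members that did not, Pdk4 had 118, 187 and 232 against 227, 182 and 198 normalised counts (-0.22 ± 0.23, adjusted p = 0.624), and Per1, which also belongs to the clock, had 0.49 ± 0.26 (adjusted p = 0.325). Lcn2, an acute phase protein, did not pass (221, 485 and 80.2 against 5.39, 41.9 and 15.8, 3.63 ± 1.07, adjusted p = 0.104).

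Relative to WT, the glucocorticoid list had a median difference of 0.87 in tRNA-Phe-1-1-/- and -0.13 in tRNA-Phe-3-1-/- brains, again with shared WT samples. Without tRNA-Phe-1-1-/- replicate B or C 5 or 7 members passed and without tRNA-Phe-3-1-/- replicate A 11. The list median lay between 0.92 and 1.02 in the fits without 1 brain of either line. Leaving out a WT or tRNA-Phe-2-1-/- brain cannot change that median. DESeq2 on the recovered reads of the 12 brains called 23 members, where it called 1318 of all 19228 genes. A palindromic glucocorticoid response element (ACA and TGT 3 bases apart, with a G 1 base before them and a C 1 base after) was found for 3 of 24 list genes with a promoter. This was 12.5%, against 0.425% of all tested protein-coding genes with a promoter and 0.475% of all single promoters. Of the called protein-coding genes with a promoter, 2.7% of the lower and 1.93% of the higher genes held it. The sites of Sgk1, Fam107a and Mt1 are shown as the 3 found in this list, with the fixed letters in capitals.
Sgk1: GaACAgaaTGTtC
Fam107a: GgACAtggTGTtC
Mt1: GgACAtgaTGTtC
The site of Sgk1 lies at chr10:21993702-21993714, that of Fam107a at chr14:8309885-8309897 and that of Mt1 at chr8:94178995-94179007 (GRCm38.p6). The other 21 promoters held no such letters in this window.

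**Figure D3:**
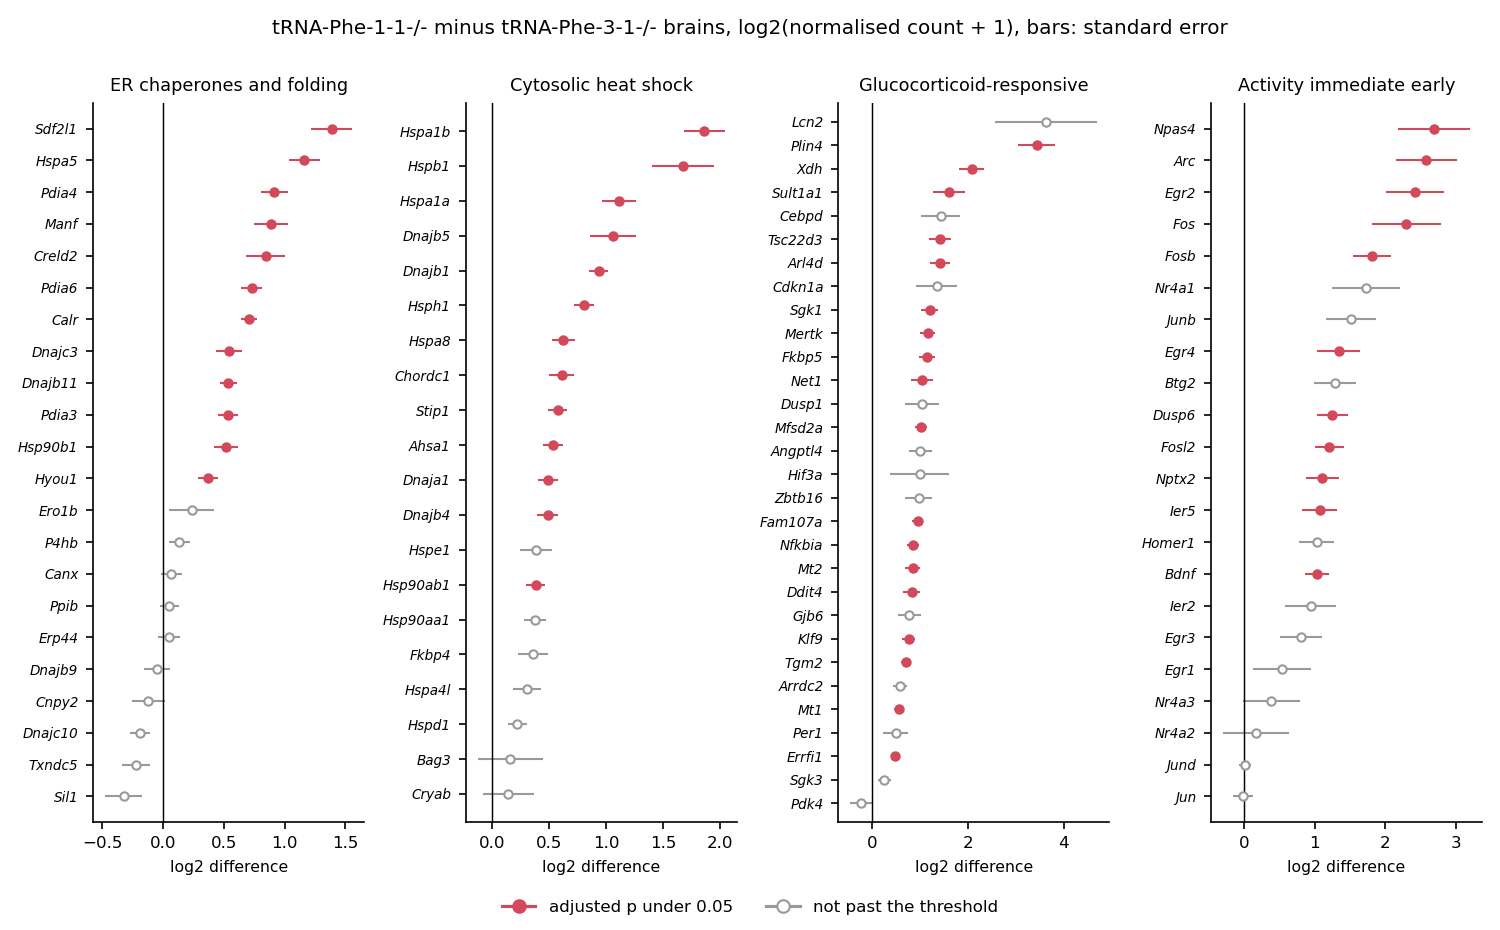
Difference of tRNA-Phe-1-1-/- from tRNA-Phe-3-1-/- brains (x axis, log2(normalised count + 1) with the SE as bars) for each tested member of 4 gene lists (y axis). Filled red points passed an adjusted p of 0.05 over all genes. The passing members lie right of 0 in all 4 panels, 12 of 22, 13 of 20, 18 of 30 and 11 of 22 from left to right.

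Clock genes were examined since several of them respond to the same hormones and all vary with the time of day. The tRNA-Phe-1-1-/- brains had more Per2, a repressor of the clock, at 1435, 1414 and 1460 against 686, 671 and 792 normalised counts (1.01 ± 0.16, adjusted p = 0.0164). Its relative Per3 had 2308, 2069 and 2112 against 1258, 1620 and 1433 (0.60 ± 0.089, adjusted p = 0.0134). Bhlhe40, another repressor, differed by 0.97 ± 0.18 (adjusted p = 0.0254). These were the 3 of 14 genes in phase with Dbp that passed, where 1.41% of all genes were higher, with a median of 0.28 for that list. Of the 5 genes in the opposite phase 0 passed by limma (1 at an unadjusted p under 0.05) or by edgeR or DESeq2. Bmal1 itself had 1574, 1539 and 1279 against 1383, 1347 and 1058 (0.22 ± 0.14, adjusted p = 0.408), and the repressor Nfil3 had the lowest p (0.33 ± 0.099, adjusted p = 0.111). Of the 14, 1 passed without tRNA-Phe-1-1-/- replicate B or C or without tRNA-Phe-3-1-/- replicate A. The time of day at which the tissue was taken was not given in the labels.

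Immediate early genes of neuronal activity, which are transcribed within minutes of synaptic stimulation, were also higher in tRNA-Phe-1-1-/- than in tRNA-Phe-3-1-/- brains. Of 22 members 21 had positive differences, and the median was 1.16. At the threshold 11 rose and 0 fell, where 1.41% of all genes were higher. Arc (chromosome 15, 74669081 to 74672570), a regulator of AMPA receptors at synapses, had 11476, 8339 and 10513 against 1590, 2692 and 1096 normalised counts (2.58 ± 0.43, adjusted p = 0.019). Npas4 (chromosome 19, 4984353 to 5003439), a neuronal transcription factor, had 924, 368 and 614 against 102, 152 and 48.4 (2.69 ± 0.51, adjusted p = 0.0269). The transcription factor Fos had 1290, 850.0 and 1388 against 212, 374 and 160.0 (2.30 ± 0.49, adjusted p = 0.0408). In each of them the lowest tRNA-Phe-1-1-/- sample had more than 2 times the highest tRNA-Phe-3-1-/- value. Egr2 (2.42 ± 0.41, adjusted p = 0.0196), Fosb (1.81 ± 0.27, adjusted p = 0.0134) and the neurotrophin gene Bdnf (1.03 ± 0.17, adjusted p = 0.0187) rose as well, as did Fosl2, Dusp6, Nptx2, Egr4 and Ier5 (1.07 to 1.34). Jun (-0.015 ± 0.15) and Jund (0.013 ± 0.081) had differences near 0.

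This group was placed differently by the WT brains. Arc had 7379, 4125 and 11320 normalised counts in WT, Npas4 had 709, 693 and 1201 and Fos had 941, 483 and 1501, which overlapped the levels of tRNA-Phe-1-1-/- brains and lay above all tRNA-Phe-3-1-/- samples. The median of the list relative to WT was 0.11 in tRNA-Phe-1-1-/- and -1.04 in tRNA-Phe-3-1-/- brains, where that of the ER list was 0.36 and -0.081. In tRNA-Phe-2-1-/- brains Arc had 4027, 2220 and 6139 and Fos 344, 243 and 789, below all tRNA-Phe-1-1-/- samples and overlapping those of tRNA-Phe-3-1-/-. Npas4 had 126, 267 and 425 there and overlapped both lines. Without tRNA-Phe-1-1-/- replicate A, B or C 2, 2 or 0 members passed, and without tRNA-Phe-3-1-/- replicate A or C 4 or 2. Leaving out tRNA-Phe-2-1-/- replicate A gave 7. Without tRNA-Phe-3-1-/- replicate C, which was the lowest sample for Arc, Npas4 and Fos, the median of the list was 0.94. Genes of cortical excitatory neurons had mostly positive differences too. Their list had 15 of 16 positive differences with a median of 0.50, or 0.20 without tRNA-Phe-3-1-/- replicate C, and 0 passed by limma, edgeR or DESeq2 (3 at an unadjusted p under 0.05). At that unadjusted threshold there were 3755 of all 19228 genes. Cux2, a factor of upper cortical layers, had the lowest p of the list (0.77 ± 0.26, adjusted p = 0.143). The list's mean log2 deviation was -0.18, 0.053 and -1.16 in tRNA-Phe-3-1-/- and 0.20, 0.09 and -0.066 in tRNA-Phe-1-1-/- replicates A, B and C. The part of the cortical genes in the result was not tested.

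**Figure D4:**
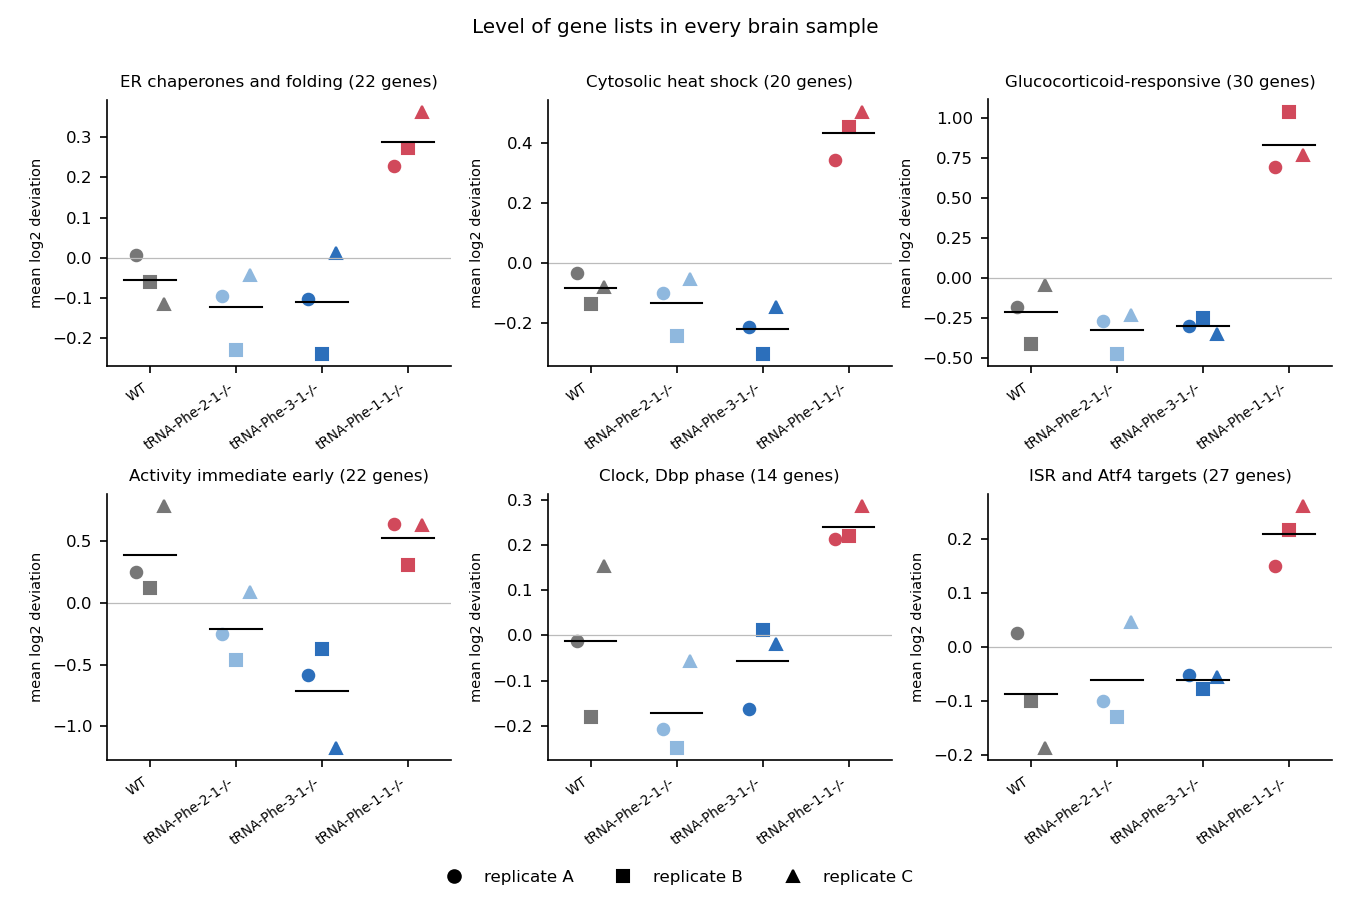
Mean log2 deviation (y axis) of the tested members of 6 gene lists from their average over the 12 brains, by genotype (x axis). Points are samples and lines are group means. The tRNA-Phe-1-1-/- samples (red) lie above all other brains for the ER, heat shock and glucocorticoid lists, while for the immediate early genes the WT brains lie near them and the tRNA-Phe-3-1-/- brains have the lowest mean.

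Among genes that were lower in tRNA-Phe-1-1-/- brains, those of myelin and mature oligodendrocytes were led by Opalin. All 24 members had negative differences, with a median of -0.83, but only Opalin passed (0 rose and 1 fell, where 0.697% of all genes fell). Opalin (chromosome 19, 41061959 to 41077113), a membrane glycoprotein of oligodendrocytes, had 80.2, 146 and 182 normalised counts in tRNA-Phe-1-1-/- and 412, 419 and 794 in tRNA-Phe-3-1-/- brains (-1.99 ± 0.37, adjusted p = 0.0253). Mog, a myelin surface protein, had 355, 528 and 736 against 974, 1042 and 1960 (-1.28 ± 0.35, adjusted p = 0.0882), and the gap junction gene Gjb1 had 99.7, 161 and 197 against 309, 326 and 624 (-1.43 ± 0.37, adjusted p = 0.0738). The lines did not overlap in these 3 genes but had a wide spread, with tRNA-Phe-1-1-/- replicate A lowest and tRNA-Phe-3-1-/- replicate C highest. For Mbp, the myelin basic protein, the lines overlapped, at 17998, 27208 and 31924 against 29318, 40163 and 64196 normalised counts (-0.76 ± 0.32, adjusted p = 0.225).

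Without tRNA-Phe-3-1-/- replicate C the median of the myelin list was -0.50, and Opalin did not pass without it, without tRNA-Phe-3-1-/- replicate A or without any one of the tRNA-Phe-1-1-/- samples. DESeq2 called 5 of the 24, where it called 552 of all 19228 genes lower. Relative to WT the list had a median of -0.99 in tRNA-Phe-1-1-/- and -0.19 in tRNA-Phe-3-1-/- brains. Pllp, a proteolipid of myelin outside the list, fell too (418, 577 and 681 against 1080, 1258 and 1926, -1.33 ± 0.27, adjusted p = 0.0347), and passed in 3 of the 12 fits without 1 brain. The oligodendrocyte precursor list had a median of -0.16, or 0.089 without tRNA-Phe-3-1-/- replicate C, and 0 of 15 members past the threshold by limma (3 at an unadjusted p under 0.05), 0 by edgeR and 1 by DESeq2. Its leading member Enpp6, which marks newly formed oligodendrocytes, had 79.1, 77.9 and 156 against 196, 335 and 454 (-1.64 ± 0.42, adjusted p = 0.0695).

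Other genes with the largest falls under the naming rule were less abundant. Atp10b, a phospholipid flippase, had 18.3, 16.6 and 29.1 against 59.3, 79.4 and 116 normalised counts (-1.93 ± 0.42, adjusted p = 0.0436). Mboat1, a lysophospholipid acyltransferase, had 17.2, 20.8 and 35.1 against 89.4, 66.3 and 118 (-1.89 ± 0.35, adjusted p = 0.0254). Ntsr1, a neurotensin receptor of deep cortical neurons, had 41.2, 40.5 and 62.1 against 138, 136 and 111 (-1.42 ± 0.26, adjusted p = 0.0254). All 3 were at low levels, and the naming rule took only genes in which the lines did not overlap. Tox2 (-1.56), Arhgef33 (-1.56), B3gnt9 (-1.41), Trim59 (-1.21) and Spata24 (-1.16) made up the rest, with Zbbx. In the 12 fits without 1 brain, Mboat1 passed in 8, Ntsr1 in 7, and Arhgef33 and Spata24 in 3 each. Atp10b, Tox2, Trim59 and Zbbx passed in 2 each and B3gnt9 in 1. In Zbbx the WT samples overlapped those of tRNA-Phe-1-1-/-, since it had 102, 108 and 116 normalised counts in tRNA-Phe-3-1-/- brains, 56.1, 34.3 and 59.1 in tRNA-Phe-1-1-/- and 47, 40.2 and 51.9 in WT brains (-1.15 ± 0.25, adjusted p = 0.0436). Among the 12 largest rises that no list held were Tnfrsf25, a death domain receptor (144, 166 and 150.3 against 37.7, 68.9 and 32.6, 1.78 ± 0.32, adjusted p = 0.0252), Fmo2, a flavin monooxygenase (68.8, 132 and 125 against 31.2, 37.5 and 25.7, 1.71 ± 0.36, adjusted p = 0.0408), and the predicted gene Gm49909 (2.04 ± 0.40, adjusted p = 0.033). Of the 12 fits without 1 brain, Tnfrsf25 passed in 7, Gm49909 in 6 and Fmo2 in 4.

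Cell types of the vessels and glia showed mixed changes. In the endothelial and pericyte list of 20 genes, 3 rose and 1 fell, with a median of 0.059, or 0.090 without tRNA-Phe-3-1-/- replicate C. Over all genes 1.41% were higher and 0.697% lower, for this and the other lists of this paragraph. Mfsd2a, the lipid transporter of the blood-brain barrier and also a member of the glucocorticoid list, had 961, 972 and 879.8 against 433, 439.8 and 520.4 normalised counts (1.01 ± 0.13, adjusted p = 0.00479). Slc2a1, the glucose transporter of the barrier, had 1682, 2461 and 1930 against 1085, 1217 and 1243 (0.76 ± 0.13, adjusted p = 0.0187). The surface protein gene Ly6c1, one of a family of similar genes, differed by 0.97 ± 0.12 (adjusted p = 0.00479). In contrast Cldn5, the main claudin of endothelial tight junctions, was lower (894, 843 and 899 against 1200, 1160 and 1152, -0.41 ± 0.076, adjusted p = 0.0253). Thus the defining endothelial marker and 3 other endothelial genes went in opposite directions. Of these 4 genes 2 passed without tRNA-Phe-1-1-/- replicate B or C or without tRNA-Phe-3-1-/- replicate A. One of 18 astrocyte genes passed, Glul, the glutamine synthetase (52870, 51885 and 52003 against 34378, 44368 and 38167, 0.43 ± 0.094, adjusted p = 0.0436), and 1 of 17 microglial genes, Tmem119 (798, 788 and 822 against 636, 541 and 486, 0.54 ± 0.12, adjusted p = 0.0452). Of 16 genes of GABA interneurons Crh, corticotropin-releasing hormone, rose (191, 243 and 234 against 99.1, 87.3 and 109.6, 1.17 ± 0.23, adjusted p = 0.0297). In the 12 fits without 1 brain Glul passed in 1, Tmem119 in 2 and Crh in 5.

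Markers of brain regions differed widely between samples of the same genotype, and none of their members passed by limma. Over all 19228 genes 3755 had an unadjusted p under 0.05, and DESeq2 called 1318. All 15 genes of the choroid plexus and ependyma had negative differences, with a median of -2.44, or -1.17 without tRNA-Phe-3-1-/- replicate C (0 by limma, 3 at an unadjusted p under 0.05, 0 by edgeR and 3 by DESeq2). Folr1, a folate receptor of the choroid plexus, had 3.44, 1.04 and 4.01 normalised counts in tRNA-Phe-1-1-/- and 141, 4.36 and 317 in tRNA-Phe-3-1-/- brains, and 83, 18 and 134 in WT brains (-4.13 ± 1.71, adjusted p = 0.212). Replicates A and C of tRNA-Phe-3-1-/- were high, and replicate B was near the level of the other line. The summed level of these 15 genes ranged from 6062 to 7341 normalised counts in tRNA-Phe-1-1-/- and from 6655 to 47709 in tRNA-Phe-3-1-/- brains. Avp, vasopressin of hypothalamic neurons, had 0, 39.5 and 10.0 against 409.5, 20.1 and 547 (-4.46 ± 1.58, adjusted p = 0.153), and the 11 hypothalamic and pituitary genes had a median of -1.78, or -0.51 without tRNA-Phe-3-1-/- replicate C (0 by limma, 2 at an unadjusted p under 0.05, 0 by edgeR and 1 by DESeq2). The 12 thalamic genes had a median of -0.79 with replicate C and 0.059 without it (0 by limma, by edgeR, by DESeq2 and at an unadjusted p under 0.05), and Slc17a6, the vesicular glutamate transporter of the thalamus, had -1.54 ± 0.88 (adjusted p = 0.363). Striatal genes split the tRNA-Phe-1-1-/- brains, with a mean log2 deviation of -2.36, 1.03 and 1.20 in replicates A, B and C, against 0.59, -0.013 and 0.27 in tRNA-Phe-3-1-/- brains. The part of region markers in the other results was not tested.

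**Figure D5:**
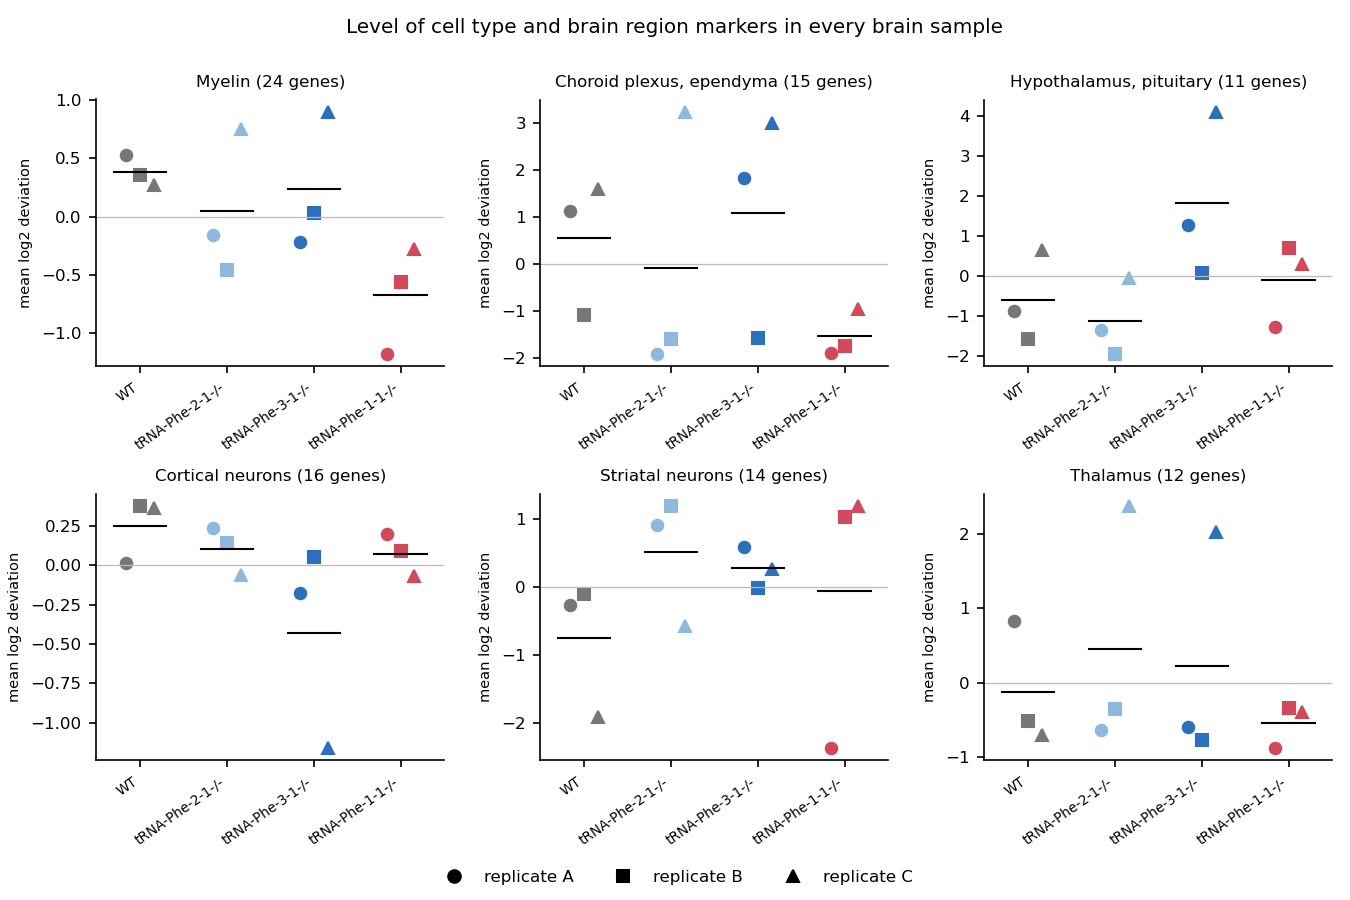
Mean log2 deviation (y axis) of the tested markers of myelin, choroid plexus, hypothalamus, cortex, striatum and thalamus from their average over the 12 brains, by genotype (x axis). Points are samples and lines are group means. Replicate C of tRNA-Phe-3-1-/- is highest of the 6 brains of the 2 lines for myelin, choroid plexus, hypothalamus and thalamus and lowest for cortex, and replicate A of tRNA-Phe-1-1-/- is lowest for striatum and myelin.

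Genes that act on tRNA-Phe itself showed no difference that passed between the lines. Of 14 genes for its charging and anticodon modification 0 passed by limma (2 at an unadjusted p under 0.05) or edgeR and 1 by DESeq2, with a median of 0.0072, or -0.066 without tRNA-Phe-3-1-/- replicate C. Farsa, the catalytic subunit of phenylalanyl-tRNA synthetase, had 1102, 928 and 1096 against 1047, 964 and 857 normalised counts (0.12 ± 0.096, adjusted p = 0.505), and its partner Farsb had 1469, 1439 and 1598 against 1633, 1250 and 1640 (0.0047 ± 0.10, adjusted p = 0.988). The values of both overlapped between the lines. Wdr6, a partner of the methyltransferase Ftsj1 that acts on the tRNA-Phe anticodon loop, had 3907, 2735 and 4436 against 7169, 5030 and 11210 (-1.03 ± 0.28, adjusted p = 0.0845), without an overlap but with a wide spread in tRNA-Phe-3-1-/- brains. Of 20 cytosolic aminoacyl-tRNA synthetases 0 passed by limma (3 at an unadjusted p under 0.05) or edgeR and 1 by DESeq2 (median 0.0089, or 0.0047 without that library). Of 26 genes of RNA polymerase III and tRNA processing 0 passed by limma (5 at an unadjusted p under 0.05), edgeR or DESeq2 (median 0.057), with the lowest p in Maf1, the repressor of the polymerase (0.22 ± 0.083, adjusted p = 0.182). Among 15 factors for stalled ribosomes 0 passed by limma (5 at an unadjusted p under 0.05) or edgeR and 3 by DESeq2. The rescue factor Gtpbp2 was the nearest, at 2177, 2094 and 2037 against 1724, 1711 and 1477 (0.36 ± 0.083, adjusted p = 0.0506). For all lists of this paragraph, 3755 of all 19228 genes had an unadjusted p under 0.05, and DESeq2 called 1318.

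Among neuronal genes of synaptic transmission, excitability and calcium binding, 1 passed, the calcium sensor Ncs1, where 2.11% of all genes passed. An unadjusted p under 0.05 was seen for 3755 of all 19228 genes, and DESeq2 called 1318. Of 29 synaptic genes 0 passed by limma (2 at an unadjusted p under 0.05), edgeR or DESeq2, with a median of 0.034 (-0.023 without tRNA-Phe-3-1-/- replicate C), and of 26 ion channels 0 by limma (3 at an unadjusted p under 0.05) or edgeR and 1 by DESeq2, with a median of 0.028 (-0.043 without that library). The lowest p of the synaptic list was that of Snap25, a protein of vesicle fusion (0.46 ± 0.16, adjusted p = 0.144). Syt2, a calcium sensor of fast transmitter release, had 999, 1502 and 1324 normalised counts in tRNA-Phe-1-1-/- and 1081, 1214 and 1415 in tRNA-Phe-3-1-/- brains (0.033 ± 0.18, adjusted p = 0.939). Both lines lay below the WT brains (3481, 2217 and 2666), and the tRNA-Phe-2-1-/- brains (2172, 1943 and 2042) lay below them too and above both lines. The calcium-binding proteins Calb1 (-0.18 ± 0.21, adjusted p = 0.672) and Calb2 (-1.72 ± 0.98, adjusted p = 0.363) did not pass. Calb2 ranged from 230 to 1674 normalised counts in tRNA-Phe-1-1-/- and from 730 to 3586 in tRNA-Phe-3-1-/- brains. Ncs1, a calcium sensor of neurons, was the 1 of 19 such genes that passed (10585, 10227 and 11286 against 8713, 7664 and 8744, 0.35 ± 0.073, adjusted p = 0.0379), and it passed in 1 of the 12 fits without 1 brain.

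Whether the changed genes differ in their need for phenylalanine was described from coding sequences (GENCODE vM39), found for 252 of the 256 higher and 101 of the 102 lower protein-coding genes. Phenylalanine made up a median of 3.43% of the codons of higher genes (quartiles 2.61% and 4.45%), 3.65% of lower genes (2.72% and 5%) and 3.60% of the 14806 genes tested with a coding sequence (2.67% and 4.65%). The share of UUU among phenylalanine codons had a median of 36.4% in higher, 45.5% in lower and 42.9% in all genes. These medians were not tested.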

How the data were processed

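Per the submitters' processing notes and the study's methods, the authors trimmed reads (Trim Galore), aligned them with STAR to GRCm38.p6, quantified them with Salmon (strand-aware) and normalised gene counts with DESeq2. The deposited values are a signal, counts divided by 1 size factor per sample, and each column gave whole reads (within 0.01) for 100% of values, which served for depth and for count tests as alternatives. From these values, log2(normalised count + 1) of the 12 brains was fitted with limma 3.58.1 in R 4.3.3 (trend of the variance on the mean, two-sided, Benjamini-Hochberg adjusted, threshold 0.05), for 19228 of 55469 genes with a mean of at least 10. The fold changes of low genes are understated on this scale. P-values measure the spread between these samples, and replicates differed by more than sampling noise. The samples, lists and rules were chosen with earlier results of these data known, so no list is independent evidence. Named were the 12 largest rises and the 12 largest falls of called protein-coding genes (mean at least 50, no overlap of the lines), up to 5 called members of each of 36 lists (or that with the lowest p), and Calb1, Calb2, Farsa, Farsb, Syt2, Plin4 and Opalin. A few genes that this rule names are not reported here. Further genes were named after their values were seen, as members of these lists. Deposited tables of the authors' comparisons (mean signal, log2 fold changes and s-values) were not used. Symbols (GENCODE vM39) matched 93.2% of identifiers, and positions and promoters are those of RefSeq for GRCm38.p6. Alternatives, run with edgeR 4.0.16 and DESeq2 1.42.0 among others, are given at the end.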

Additional observations from a re-analysis of the deposited data

How the results depend on the processing

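The 406 genes (272 higher and 134 lower) kept their direction under each of the 24 alternatives that fitted them. In the fits without 1 brain this was fixed in advance, since the lines did not overlap in these genes. It was also fixed with the 6 brains alone, other filters, other pseudocounts, the replicate block and no variance trend. The kept direction is thus no measure of stability in those settings. The counts moved by more than 1.5 times in 4 settings beside those that left out a brain. With no filter on low values 222 genes passed (165 higher and 57 lower), with no variance trend 236 (148 and 88), with the 6 brains of the lines alone 5 (4 and 1), and with DESeq2 on recovered reads 1318 (766 and 552). Leaving out 1 brain gave 48 to 411 genes in all, 36 to 287 higher and 10 to 137 lower, and where it left 2 samples in a line these were taken to vary like the other groups. Other pseudocounts (0.1 and 5), a mean of at least 50, quantile normalisation, rescaling by trimmed means and edgeR with either normalisation gave between 344 and 440. The replicate letters were not taken to pair the 2 lines, since their samples with the same letter had correlations of -0.090, -0.080 and 0.24, although those of tRNA-Phe-3-1-/- with tRNA-Phe-2-1-/- brains had 0.21, 0.21 and 0.44. With the letter as a replicate block 354 genes passed (232 higher and 122 lower), with 2 in place of 5 in the ER translocation and degradation list, 1 in place of 2 in the integrated stress response list, 0 in place of 1 in the astrocyte and cholesterol lists, 2 in place of 1 in the myelin list, and 1 in place of 0 in the lists of oligodendrocyte precursors and tRNA-Phe charging. Of the 56 named genes past the threshold, 17 passed in every fit without 1 brain. The causes of these shifts were not tested. Genes near the filter of 10 normalised counts are limited by depth, and tRNA-Phe genes were not analysed here.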

Other observations

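Few genes of the remaining groups passed the threshold, where 2.11% of all genes passed. For the lists of this section, 3755 of all 19228 genes had an unadjusted p under 0.05, and DESeq2 called 1318. Of 13 genes encoded by the mitochondrial genome, all had negative differences between the lines, with a median of -0.15, and 0 passed by limma (2 at an unadjusted p under 0.05) or edgeR and 1 by DESeq2. The lowest p was that of mt-Nd5, a subunit of complex I, with 8359, 6907 and 5761 against 9286, 9655 and 10071 normalised counts (-0.48 ± 0.13, limma adjusted p = 0.0791). Of 20 genes of cholesterol synthesis and uptake 19 had negative differences, and Mvk, mevalonate kinase, was the 1 that fell (348, 386 and 419 against 562, 496 and 551, -0.48 ± 0.11, limma adjusted p = 0.0468), in 1 of the 12 fits without 1 brain as well.

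Red cell genes were lower in tRNA-Phe-1-1-/- brains in 8 of 9 members, with a median of -1.36 (or -1.0 without tRNA-Phe-3-1-/- replicate C), and 0 passed by limma (6 at an unadjusted p under 0.05) or edgeR and 5 by DESeq2. Hba-a2, an alpha globin with a near-identical copy, had 2333, 2149 and 1808 against 4531, 4275 and 9056 normalised counts without an overlap (-1.43 ± 0.36, limma adjusted p = 0.0692), and 3718, 3890 and 7189 in WT brains. The 17 interferon-stimulated genes had a median of 0.067, with 0 past the threshold by limma, edgeR and DESeq2 and 0 at an unadjusted p under 0.05, and the lowest p in Ifi44 (0.68 ± 0.35, limma adjusted p = 0.302). Among 18 reactive astrocyte and acute phase genes the 1 that rose was Hspb1, which the heat shock list also holds. The 13 meningeal genes had a median of 0.016, or 0.16 without tRNA-Phe-3-1-/- replicate C (0 by limma, edgeR and at an unadjusted p under 0.05, and 1 by DESeq2), with Dcn, a collagen-binding proteoglycan, at 256, 324 and 346 against 1247, 287 and 933 normalised counts (-1.18 ± 0.54, limma adjusted p = 0.257).

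The remaining region lists had no member past the threshold by limma. The 12 hippocampal genes had a median of -0.15, or -0.097 without tRNA-Phe-3-1-/- replicate C (0 by edgeR and DESeq2, and 1 at an unadjusted p under 0.05), with the lowest p in Wfs1 (0.68 ± 0.29, limma adjusted p = 0.231). The 15 cerebellar genes had -0.65, or -0.11 without tRNA-Phe-3-1-/- replicate C (0 by edgeR, 1 by DESeq2, 3 at an unadjusted p under 0.05), with the lowest p in Itpr1 (0.58 ± 0.20, limma adjusted p = 0.148). The 9 hindbrain genes had -0.15 and, without that library, 0.30 (0 by edgeR and DESeq2, 2 at an unadjusted p under 0.05), with the lowest p in Nefl (0.33 ± 0.11, limma adjusted p = 0.137). The 14 genes of the olfactory bulb had -0.43, or -0.66 without that library and up to 0.14 without tRNA-Phe-3-1-/- replicate B (0 by edgeR, DESeq2 and at an unadjusted p under 0.05), with the lowest p in Pax6 (-0.47 ± 0.30, limma adjusted p = 0.424). The 14 striatal genes had -0.25, and without 1 brain between -0.89 (tRNA-Phe-1-1-/- replicate C) and 0.69 (tRNA-Phe-1-1-/- replicate A) (0 by edgeR, 1 by DESeq2, 1 at an unadjusted p under 0.05), with the lowest p in Pdyn (1.08 ± 0.41, limma adjusted p = 0.177).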
